A study of Mus musculus with 2 samples.

Results

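Many start sites in the mouse genome belong to genes that encode no protein. Here 124 regions at or near starts listed as non-coding were described by their H3K9me3, a histone mark of silenced chromatin. They were the regions of one deposited table whose start site is listed with a non-coding transcript accession, with Taf1b and numbered Zfp symbols left out. This gave 124 of 1381 regions, belonging to 119 genes, and 1256 further regions carry a protein-coding accession. The assay was ChIP-seq, in which DNA bound to the marked histone is pulled down with an antibody, here anti_H3K9me3, and sequenced. The cells were LSK cells, the bone marrow cells that lack lineage markers, carry Sca-1 and c-Kit on their surface and include the blood stem cells. There was 1 library of WT control cells and 1 of Kdm4a, b c triple knockout cells, both from mice of strain C57BL6. Control mice and conditional knockout mice alike were given tamoxifen, and the cells were sorted 2 weeks later. The labels name neither the Cre line nor the number or age of the animals behind each library, so a library is a single sample that may pool mice.

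The accession does not always mean a non-coding gene. RefSeq types 71 of the 124 regions as long non-coding RNA genes (66 genes), 18 as microRNA genes, 6 as small nucleolar or small nuclear RNA genes, 11 as transcribed pseudogenes and 18 as protein-coding genes that also have a non-coding transcript. The label non-coding RNA gene thus held for 95 regions and not for the other 29, and the 5 types are kept apart below.

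As background, H3K9me3 is written by methyltransferases such as Setdb1 and Suv39h1 and bound by heterochromatin protein HP1, while the Kdm4 demethylases remove methyl groups from it. H3K4me3 is the opposite kind of mark, found at starts that are in use. A region here is a stretch with H3K4me3 whose centre lies within 1 kb of a listed start, and for which H3K9me3 reads were also counted. It need not contain the start. Long non-coding RNAs are often transcribed from the same open promoter as a coding gene on the other strand, whereas most microRNAs and small nucleolar RNAs are cut out of longer host transcripts and do not have a start of their own.

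The microRNA members are shown first, because their listed start is the 5′ end of the hairpin and not always a promoter. RefSeq (GRCm38.p6) gave 24 mature sequences for 15 of the 18 microRNA genes, with 24 different seeds, so no pair of them shares one. The lines below hold the microRNA with most H3K9me3 reads (miR-5103), the microRNAs whose seed is also found in another mouse microRNA, and miR-484, whose hairpin lies 352 bp from the start of Marf1. They run 5′ to 3′, and capitals mark the seed (bases 2 to 8).
mmu-miR-5103: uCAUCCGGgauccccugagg
mmu-miR-484: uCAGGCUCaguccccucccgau
mmu-miR-99b-5p: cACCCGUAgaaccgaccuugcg
mmu-miR-99b-3p: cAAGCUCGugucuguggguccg
mmu-miR-330-3p: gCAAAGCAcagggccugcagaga
mmu-miR-330-5p: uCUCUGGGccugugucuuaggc
mmu-miR-686: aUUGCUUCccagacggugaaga
mmu-miR-3077-3p: cUGACUCCcugcuucuccgcag
The seed of miR-99b-5p is that of miR-99a-5p and miR-100-5p, and the seed of miR-99b-3p is that of miR-99a-3p. The seed of miR-330-5p is also found in miR-326-3p, that of miR-330-3p in miR-6240, that of miR-686 in miR-7231-3p and that of miR-3077-3p in miR-7661-3p. None of these partner microRNAs is among the listed regions.

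The long non-coding members are shown by 4 promoters, chosen after their values were seen. All 4 had an H3K9me3 counting interval above 1 (defined below) and an H3K4me3 region that reaches into the window from 250 bases before to 50 bases after the RefSeq start. Capitals mark the bases that lie inside the listed H3K4me3 region. The promoter of 1700028E10Rik, the member with the highest ratio, lies at chr5:151368425-151368724 on the plus strand, and that of 4930592C13Rik, the long non-coding member with most reads, at chr3:157534041-157534340 on the minus strand. The promoter of 9330136K24Rik, which starts inside the zinc finger gene Zfp52, lies at chr17:21535829-21536128 on the minus strand, and that of D130017N08Rik, which starts inside the deubiquitinase gene Usp42, at chr5:143758104-143758403 on the plus strand.
1700028E10Rik promoter: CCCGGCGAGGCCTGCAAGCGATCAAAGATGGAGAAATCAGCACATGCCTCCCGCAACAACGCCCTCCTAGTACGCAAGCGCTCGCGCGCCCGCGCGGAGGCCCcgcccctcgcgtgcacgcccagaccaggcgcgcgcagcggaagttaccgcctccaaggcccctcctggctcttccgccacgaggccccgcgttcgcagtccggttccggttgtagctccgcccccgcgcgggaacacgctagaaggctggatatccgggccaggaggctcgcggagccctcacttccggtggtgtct
4930592C13Rik promoter: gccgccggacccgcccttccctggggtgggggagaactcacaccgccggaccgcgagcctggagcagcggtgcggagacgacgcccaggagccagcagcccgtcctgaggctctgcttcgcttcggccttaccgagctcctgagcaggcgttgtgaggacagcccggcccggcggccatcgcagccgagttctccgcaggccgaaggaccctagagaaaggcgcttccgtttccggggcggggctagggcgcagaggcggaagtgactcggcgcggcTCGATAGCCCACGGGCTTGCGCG
9330136K24Rik promoter: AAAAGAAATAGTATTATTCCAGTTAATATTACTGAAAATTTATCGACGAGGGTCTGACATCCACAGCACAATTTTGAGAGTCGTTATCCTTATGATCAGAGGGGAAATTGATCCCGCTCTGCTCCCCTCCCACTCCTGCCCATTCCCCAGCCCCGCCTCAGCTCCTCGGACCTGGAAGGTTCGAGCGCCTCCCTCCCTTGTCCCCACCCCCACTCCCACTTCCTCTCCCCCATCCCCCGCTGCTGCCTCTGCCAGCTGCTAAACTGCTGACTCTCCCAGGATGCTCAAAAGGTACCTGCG
D130017N08Rik promoter: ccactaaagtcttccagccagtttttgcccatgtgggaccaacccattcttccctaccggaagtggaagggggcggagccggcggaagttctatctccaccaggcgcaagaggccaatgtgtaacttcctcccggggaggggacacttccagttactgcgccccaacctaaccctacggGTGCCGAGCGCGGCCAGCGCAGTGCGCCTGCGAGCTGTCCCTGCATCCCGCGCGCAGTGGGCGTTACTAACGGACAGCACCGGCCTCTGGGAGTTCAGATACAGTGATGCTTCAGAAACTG
The first of these windows holds 38 CpG pairs and the second 36, while the third holds 10 and the fourth 20. The H3K4me3 region covers 103 bases of the first, 23 of the second, all 300 of the third and 121 of the fourth.

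Both libraries were of similar depth, with 24673463 control and 26061344 knockout reads behind the scaling, so that 1 read is worth 0.0405 RPM (reads scaled to library size) in the control and 0.0384 RPM in the knockout. The table is a selection made by the authors. Its lowest ratio of knockout to control is 2.01 and every region has at least 1 control read, so H3K9me3 was higher in the knockout library at every member by construction, and that direction is no result. With 1 library per group there was no spread between animals, no test between the conditions and no p-value. Each ratio is therefore given with an exact 95% counting interval (Clopper-Pearson) from the whole reads of both libraries, which covers counting error only. Of 11 marker genes of LSK cells and of mature blood cells that were looked up, only Ly6a, which encodes Sca-1, has a listed region, so the cell type could not be checked from this table.

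Reads were few at most of the non-coding regions. A member had a median of 2 control reads (quartiles 1 and 4, highest 23) and 6.5 knockout reads (quartiles 4 and 11, highest 61). The commonest pair of counts, 1 control and 3 knockout reads, was found at 24 members and gave a ratio of 2.84 with a counting interval from 0.228 to 149. Another 12 members had 2 and 5 reads, and 11 had 1 and 4 reads. Ratios at these members cannot be told from 1 or from each other at this depth.

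Over all 124 members the reads summed to 408 in the control and 1298 in the knockout library, a joint RPM ratio of 3.01 (95% counting interval 2.69 to 3.37). The 1256 regions with a coding accession summed to 2963 and 10939 reads, a joint ratio of 3.50 (3.36 to 3.64). The 2 intervals meet at their ends. The median deposited ratio was 2.84 (quartiles 2.45 and 3.79) at the members and 3.14 (quartiles 2.84 and 4.73) at the coding accessions. On the log2 scale, with 0.0405 RPM added to both values, the medians were 1.16 and 1.26.

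The counting interval lay above 1 at 26 of the 124 members (21.0%), against 21.1% of the whole table and 21.2% of the coding accessions, so this share is that of the background. A ratio of 4 or more was found at 25 members (20.2%), against 28.6% of the whole table and 29.5% of the coding accessions. The members had more control reads per region on average, 3.29 against 2.36, while both medians were 2. The members' mean was 2.66 without the 5 members with most reads and 2.5 without the 10, with no coding accession left out. At least 5 control reads were found at 22 members (17.7%), against 135 coding accessions (10.7%). Members were 8.98% of the regions of the table but held 12.1% of its control reads and 10.6% of its knockout reads.

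**Figure D1:**
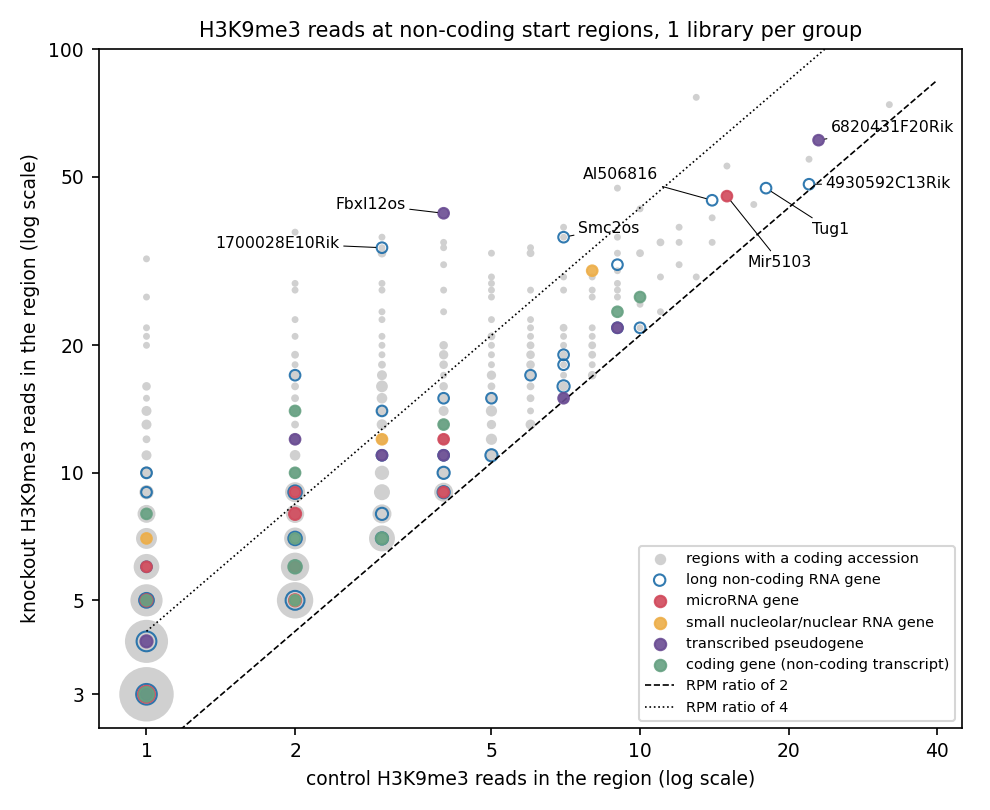
H3K9me3 reads in the control library (x axis, log scale) and the knockout library (y axis, log scale) at 124 regions with a non-coding accession, coloured by gene type, and at 1256 regions with a coding accession (grey); larger points stand for more regions with the same counts, and the lines mark RPM ratios of 2 and 4. Most points lie at 1 or 2 control reads, all lie above the line of 2 by selection, and the 5 members with 14 or more control reads lie between the lines, at ratios of 2.07 to 2.98.

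The plot of reads in both libraries shows that the members with the highest control counts lie between the lines of 2 and 4, while others with many reads, such as Fbxl12os, lie above the line of 4. Among regions with at least 20 reads in both libraries together, 22 members summed to 216 control and 649 knockout reads, a joint ratio of 2.84 (2.44 to 3.33). The 155 coding accessions with as many reads had a joint ratio of 3.66 (3.41 to 3.93). Their median ratios were 2.52 and 3.41. In this class 3 of the 22 members and 62 of the 155 coding accessions reached a ratio of 4.

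Below 20 reads the intervals of the sets overlapped. Regions with 10 to 19 reads had joint ratios of 3.22 (2.58 to 4.06; 34 members) and 3.37 (3.15 to 3.62; 366 coding accessions). Regions with fewer than 10 reads had 3.18 (2.503 to 4.07; 68 members) and 3.46 (3.22 to 3.72; 735 coding accessions). The classes were formed after the values were seen and are cut on reads that are mostly knockout reads, so a region can enter the highest class through the knockout library alone. The values are given as a description of these 2 libraries, with no test, and do not set the non-coding regions apart.

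**Figure D2:**
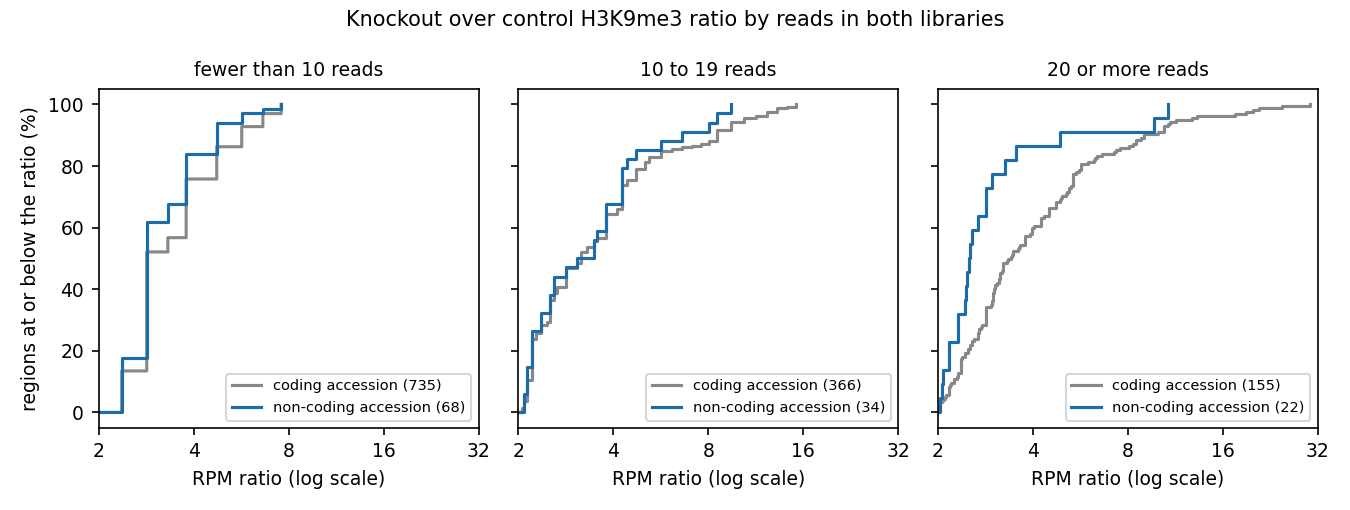
Percent of regions (y axis) at or below each knockout over control RPM ratio (x axis, log scale) for regions with a non-coding accession (blue) and a coding accession (grey), split by the reads of both libraries together. The curves run close together below 20 reads, and at 20 or more reads the non-coding curve rises earlier, with a median of 2.52 against 3.41.

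Long non-coding RNA genes gave 71 regions with 243 control and 754 knockout reads, a joint ratio of 2.94 (2.54 to 3.41). An interval above 1 was found at 14 of the 71 (19.7%), against 21.1% of the whole table, so this share is near that of the background. The highest ratio of all members was at 1700028E10Rik, whose start lies inside Stard13 on the opposite strand. Its region at chr5:151367787-151368527, upstream of the start, had 0.122 RPM (3 reads) in the control and 1.30 RPM (34 reads) in the knockout, a ratio of 10.7 (3.37 to 54.6). Its other region, downstream of the start at chr5:151368911-151369928, had 5 and 15 reads and a ratio of 2.84 (0.981 to 9.99). Thus the downstream region of the same gene had more control reads but fewer knockout reads.

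Smc2os starts 257 bp from Smc2, the gene of a condensin subunit, and is read away from it on the other strand. Its region at chr4:52438171-52438801 had 0.284 RPM (7 reads) in the control and 1.38 RPM (36 reads) in the knockout, a ratio of 4.87 (2.14 to 12.97). It was one of 3 members, with 1700028E10Rik and the pseudogene Fbxl12os, whose interval lay wholly above 2, the limit of the selection.

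The other long non-coding members with most reads had ratios between 2.07 and 3.26. 4930592C13Rik starts 75 bp from Zranb2, which encodes a zinc finger protein of splicing, and had 0.892 RPM (22 reads) in the control and 1.84 RPM (48 reads) in the knockout, a ratio of 2.07 (1.22 to 3.59). Tug1, a long non-coding RNA first described in the mouse retina, starts 623 bp from Morc2a, and its region at chr11:3647959-3648650 had 0.730 RPM (18 reads) and 1.80 RPM (47 reads), a ratio of 2.47 (1.41 to 4.52). The human counterpart of Morc2a acts with the HUSH silencing complex. AI506816 at chr5:23711844-23712455 had 14 and 44 reads (ratio 2.98, 1.60 to 5.88), and 1500011B03Rik at chr5:114813095-114813820 had 9 and 31 reads (ratio 3.26, 1.52 to 7.79). These regions lie wholly downstream of their starts and had more control reads than the 2 reads of the median member. They were picked for their many reads in both libraries together, so a high count was largely given by the choice.

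Other long non-coding members with an interval above 1 had few control reads and wide intervals. 1700008J07Rik, 886 bp from the start of Srcap, a chromatin remodelling ATPase, had 1 and 10 reads and a ratio of 9.47 (1.35 to 411). 4930526I15Rik had 2 and 17 reads and a ratio of 8.05 (1.91 to 71.8), and D130017N08Rik had 3 and 14 reads and a ratio of 4.42 (1.23 to 23.98). 9330136K24Rik had 4 and 15 reads and a ratio of 3.55 (1.13 to 14.7). With so few control reads these ratios are known only within wide limits. Rab10os, named for the small GTPase gene Rab10, had 6 and 17 reads (ratio 2.68, 1.01 to 8.31), D330041H03Rik had 7 and 19 reads (ratio 2.57, 1.03 to 7.23), and Gm1976 had 9 and 22 reads (ratio 2.31, 1.02 to 5.71). The lower limits of these 3 stood just above 1. The lowest long non-coding ratios among members with at least 10 reads were at 4930592C13Rik, at A330069E16Rik (10 and 22 reads, ratio 2.08, 0.946 to 4.93), and at AA388235 and 4930522P08Rik (5 and 11 reads each, ratio 2.08, 0.667 to 7.65).

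Of 62 well-known long non-coding and host genes that were looked up, 5 had a listed region. Tug1 is described above. Snhg6, Snhg3 and Snhg8 are host genes whose introns hold small nucleolar RNAs, and Dancr is a long non-coding RNA known in human cells for keeping epidermal progenitors undifferentiated. Snhg6 at chr1:9942814-9943621 had 0.0405 RPM (1 read) in the control and 0.345 RPM (9 reads) in the knockout, a ratio of 8.52 (1.18 to 373). Dancr had 1 and 5 reads (ratio 4.73, 0.530 to 224), Snhg3 had 1 and 4 reads (ratio 3.79, 0.375 to 186) and Snhg8 had 2 and 5 reads (ratio 2.37, 0.387 to 24.9). Of these 4 genes only Snhg6 had an interval above 1, with a single control read behind it. The other 57 genes, among them Malat1, Neat1 and Gas5, have no level here, since the table holds only regions past the selection. Ino80dos, opposite the gene of an INO80 remodeller subunit, had 1 and 4 reads as well.

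In all, 5 long non-coding genes had 2 listed regions each, which share a start and are not independent. Besides 1700028E10Rik these were 1700012D14Rik, with 7 and 16 reads in one region (ratio 2.16, 0.842 to 6.22) and 3 and 11 in the other (ratio 3.47, 0.917 to 19.4), and 1700018L02Rik, with 1 and 4 reads and 1 and 3 reads. 1700102H20Rik had 3 and 7 reads (ratio 2.21) and 1 and 3 reads (ratio 2.84), and Gm16675, which shares its promoter side with the interferon regulatory factor gene Irf2, had 2 and 5 reads (ratio 2.37) and 2 and 6 reads (ratio 2.84). In all 5 genes the 2 intervals overlapped, in 1700028E10Rik from 3.37 to 9.99.

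**Figure D3:**
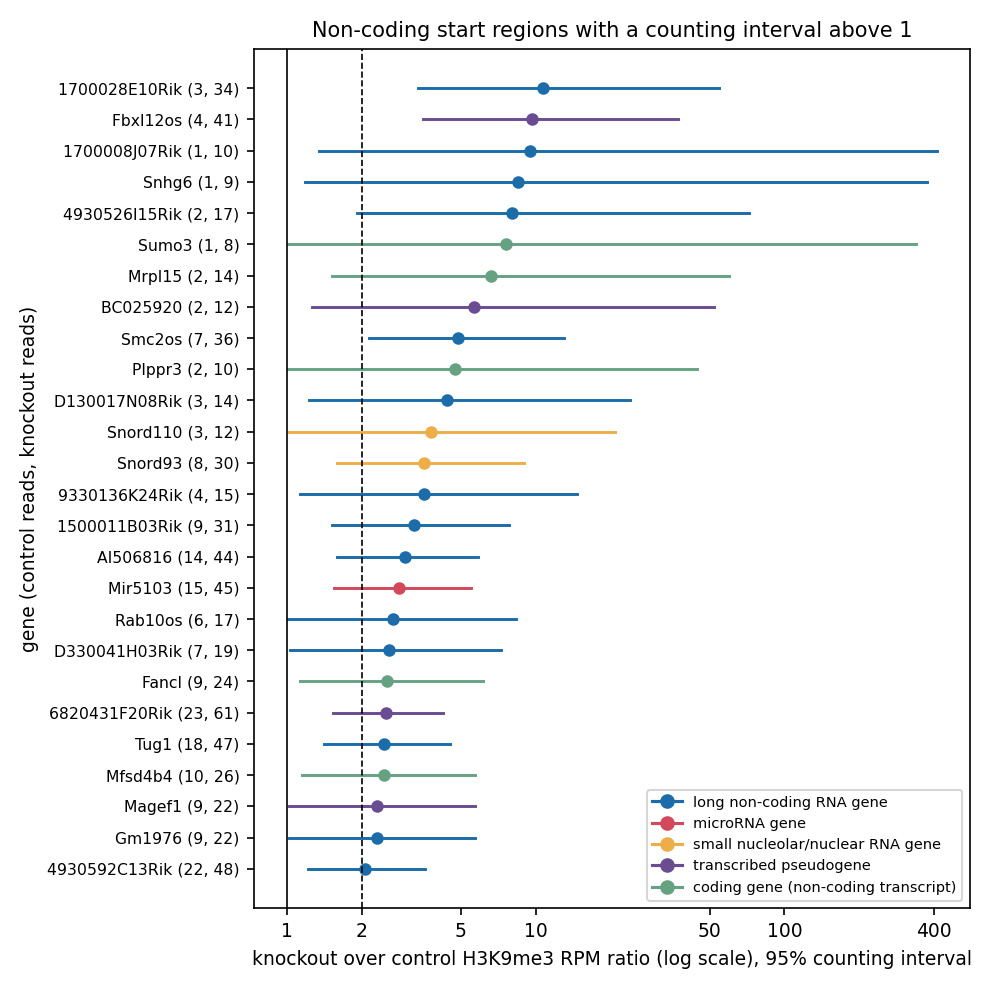
Knockout over control H3K9me3 RPM ratio (points, x axis, log scale) with exact 95% counting intervals (bars) at the 26 regions whose interval lies above 1; each row is 1 region, with its control and knockout reads in brackets, and the dashed line marks the table's lower limit of 2. Intervals are widest where the control has 1 or 2 reads, and 3 of the 26, at 1700028E10Rik, Fbxl12os and Smc2os, lie wholly above 2.

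The 18 microRNA genes had 44 control and 141 knockout reads, a joint ratio of 3.03 (2.15 to 4.36), and 15 and 45 of these reads were at Mir5103. Without Mir5103 the other 17 genes had 29 and 96 reads, a joint ratio of 3.13 (2.05 to 4.93). Mir5103 was the only microRNA member with an interval above 1. Its region at chr1:34432517-34432864, 335 to 682 bp downstream of the hairpin's start, had 0.608 RPM in the control and 1.73 RPM in the knockout, a ratio of 2.84 (1.55 to 5.49). No coding gene lies within 1 kb of it, and the nearest, Ccdc115, is 3806 bp away.

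For most other microRNAs the H3K4me3 region belonged to the surroundings of a coding gene. The region lay within 1 kb of a coding gene in 16 of 18 cases and overlapped one in 11, and 11 hairpins start inside a coding gene, 8 of them on the same strand. Mir99b, which lies in a cluster with Mirlet7e and Mir125a, starts inside Spaca6, and its region lay wholly upstream of the hairpin with 1 control and 3 knockout reads. Mir686 lies in the proteasome subunit gene Psmb5 and Mir3077 in Sap18, the gene of a histone deacetylase complex subunit, and each had 2 and 8 reads (ratio 3.79, 0.756 to 36.6). Mir320, whose region lies 14 bp from the RNA polymerase III subunit gene Polr3d, had 2 and 9 reads (ratio 4.26, 0.882 to 40.5), and Mir484, beside Marf1, had 2 and 5 reads (ratio 2.37, 0.387 to 24.9). MiR-320 and miR-484 are known examples of microRNAs whose hairpin begins at a transcription start.

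The other microRNA members had similar or fewer reads. Gm38670, the gene of miR-9769 inside the small heat shock protein gene Hspb6, had 4 and 12 reads (ratio 2.84, 0.861 to 12.1), and Mir1949 had 4 and 9 (ratio 2.13, 0.595 to 9.47). Mir5627, 245 bp from the chaperone gene Dnajb9, had 1 and 6 reads (ratio 5.68, 0.689 to 261). Mir1894, inside Ppp1r10, and Mir1900, opposite the adhesion molecule gene Icam5, each had 1 and 5 reads. All of these intervals included 1. Mir7228 had 2 and 6 reads, Mir5135 had 2 and 5, and Mir330 in Eml2, Mir707 in Akt1s1, Mir7058 in Lat, Mir1934 and Mir6359 had 1 and 3 reads each, the lowest counts in the table.

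The 6 small nucleolar or nuclear RNA genes had 16 control and 60 knockout reads, a joint ratio of 3.55 (2.02 to 6.604). Snord93 at chr5:23851828-23852223 had 0.324 RPM (8 reads) in the control and 1.15 RPM (30 reads) in the knockout, a ratio of 3.55 (1.59 to 8.96), and without it the other 5 had 8 and 30 reads. Snord110, an intron-encoded RNA of Nop56, whose product is a core protein of such particles, had 3 and 12 reads, a ratio of 3.79 (1.02 to 20.9). These were the only members of the type with an interval above 1. Snord12 had 1 and 3 reads, AF357399 in Rps16 had 2 and 5, and Rnu73b in Rps3a1 had 1 and 7 reads (ratio 6.63, 0.851 to 299). Of the 6, 3 start inside a coding gene on the same strand (Nop56, Rps3a1 or Rps16), and their regions overlap that gene.

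The 11 transcribed pseudogenes had 56 and 187 reads, a joint ratio of 3.16 (2.33 to 4.34). The member with most reads of all, 6820431F20Rik at chr8:20296102-20298913, had 0.932 RPM (23 reads) in the control and 2.34 RPM (61 reads) in the knockout, a ratio of 2.51 (1.53 to 4.25), and without it the other 10 had a joint ratio of 3.61 (2.45 to 5.48). Fbxl12os, named for lying opposite an F-box protein gene, had 0.162 RPM (4 reads) in the control and 1.57 RPM (41 reads) in the knockout at chr9:20606731-20607842, a ratio of 9.70 (3.51 to 37.3). In the control library the first had the highest count of all members and the second a count near the members' mean of 3.29. BC025920 had 2 and 12 reads (ratio 5.68, 1.26 to 52.3) and Magef1 had 9 and 22 reads (ratio 2.31, 1.02 to 5.71), and 1810014B01Rik had the lowest ratio of all members, 2.03 (0.779 to 5.88), with 7 and 15 reads. Pseudogenes can share sequence with a copy elsewhere, and how reads with several matches were handled is not given in the sources used here, so these values are uncertain.

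The 18 coding genes listed by a non-coding transcript had 49 and 156 reads, a joint ratio of 3.01 (2.17 to 4.24). Of these, 5 had an interval above 1 (27.8%, against 21.1% of the whole table). Fancl, the ubiquitin ligase of the Fanconi anaemia core complex, had 9 and 24 reads (ratio 2.52, 1.13 to 6.17), and Mfsd4b4, a transporter family member, had 10 and 26 (ratio 2.46, 1.15 to 5.72). Mrpl15, a mitochondrial ribosome subunit, had 2 and 14 reads (ratio 6.63, 1.52 to 60.1). Sumo3, a ubiquitin-like modifier, had 1 and 8 reads (ratio 7.57, 1.02 to 336), and Plppr3, a lipid phosphatase-related protein, had 2 and 10 (ratio 4.73, 1.01 to 44.4). The joint ratios of the 5 gene types ran from 2.94 to 3.55 with overlapping intervals.

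The 64 regions not named by the rule for named genes, each of another gene, had 1 to 7 control and 3 to 18 knockout reads, ratios from 2.13 to 6.63, and intervals that included 1 at every region. The 10 members with most reads held 30.1% of the members' control reads and 32.1% of their knockout reads.

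The rule did not use the position of a start, and here the shares differed by more than the counting error. At 49 of 124 members a coding gene start listed in the RefSeq promoter table lay within 1 kb on the other strand. This is 39.5% (95% binomial interval 30.9 to 48.7), against 133 of 1256 coding accessions (10.6%, 8.94 to 12.4). Among long non-coding members the share was 39 of 71 regions (54.9%, 42.7 to 66.8), or 36 of 66 genes (54.5%). In the RefSeq promoter table as a whole it was 1338 of 11588 long non-coding starts (11.5%) and 1976 of 21263 coding starts (9.29%). These intervals cover counting only and are exact. The promoter set used appears to lack some coding starts, so a neighbour can be missed in any of these groups. For Mrpl15 the nearest listed coding start on the other strand was 14317296 bp away. For Ino80dos it was 96245 bp away, although the gene Ino80d lies 322 bp from its region. No test of the difference was made. Only coding starts count as neighbours. A pair of a non-coding and a coding gene thus counts for the member but not for the coding accession, and the shares do not compare like pairs. The choice of regions with H3K4me3 applies to members and coding accessions alike, but not to the RefSeq starts as a whole. The contrast with those starts cannot be told apart from this choice.

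**Figure D4:**
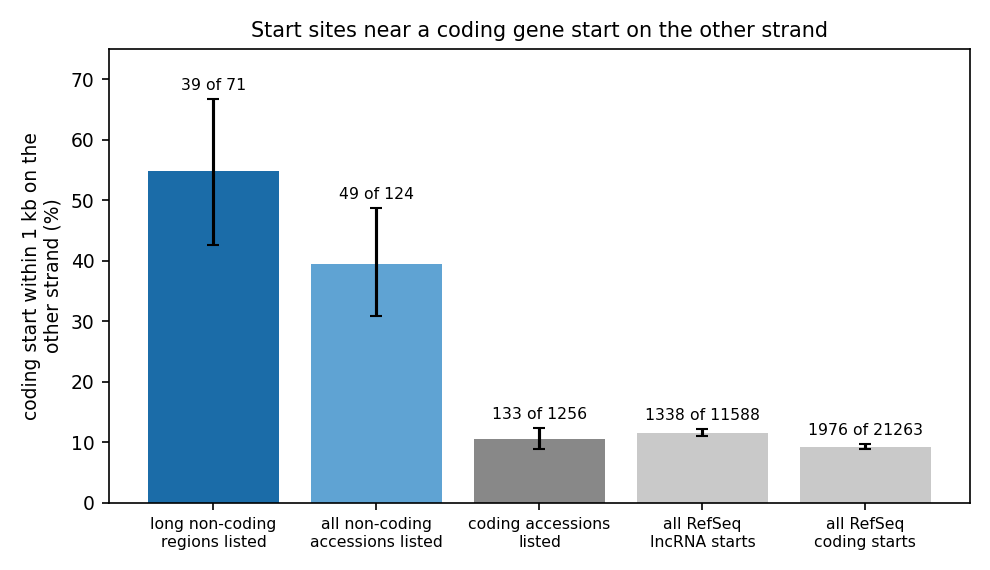
Percent of start sites with a listed coding gene start within 1 kb on the other strand (bars, y axis from 0), with exact 95% binomial intervals and counts. Sets are long non-coding members, all members, regions with a coding accession and all RefSeq long non-coding and coding starts. The RefSeq starts were not chosen by H3K4me3. The share is 54.9% at long non-coding members and 9.29% to 11.5% at the last 3 sets.

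In the bars of neighbouring starts, both sets of members lie above each of the other 3 sets. The distance from start to start at these 49 regions, which belong to 46 genes, was 5 to 919 bp with a median of 230 bp, and 17 regions had a distance of at most 100 bp. At 37 of the 49 the 2 genes are read away from each other from these 2 starts, and at 12 towards each other. Only the 2 starts were compared, and overlap of transcripts is not limited to the 12. At 22 of the 49 the member's start lies inside a coding gene. Some of the 37 start inside the neighbour itself, such as 2700099C18Rik inside Mettl4, 2810454H06Rik inside Gpr19 and 4833418N02Rik inside Ttc7. Gm16675 and Irf2 start 230 bp apart, 9430065F17Rik and Zfp748 start 82 bp apart, and 1700022H01Rik starts 5 bp from Sar1a, a small GTPase gene of the COPII coat.

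Members with and without such a listed neighbour had nearly the same joint H3K9me3 ratio. The 49 members with one had 133 control and 421 knockout reads, a joint ratio of 2.997 (2.46 to 3.67). The other 75, some of which may have a neighbour that is not listed, had 275 and 877 reads. Their joint ratio was 3.02 (2.63 to 3.47). An interval above 1 was found at 6 of the 49 (12.2%) and at 20 of the 75 (26.7%), against 21.1% of the whole table. The coding accessions ran the same way, with 21 of 133 (15.8%) and 245 of 1123 (21.8%). The first group had fewer reads, with a mean of 2.71 control reads against 3.67. A read counted at such a region cannot be assigned to one of the 2 genes.

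The H3K4me3 region spanned the listed start at 44 members (35.5%), lay wholly upstream at 31 and wholly downstream at 49 (39.5%), against 280, 433 and 543 of the 1256 coding accessions (22.3%, 34.5% and 43.2%). Joint ratios were 3.09 (2.54 to 3.77) for spanning, 3.53 (2.72 to 4.63) for upstream and 2.77 (2.35 to 3.27) for downstream members, with overlapping intervals. Of the 10 members with most reads 6 had a downstream region, among them Smc2os, Tug1 and Mir5103. Region widths had a median of 727 bp, against 679 bp at coding accessions, and H3K4me3 heights a median of 10.7 RPKM against 11.1 RPKM. The 10 members with most reads had a median H3K4me3 height of 9.07 RPKM. Over the 124 members, the Spearman correlation between H3K4me3 height and H3K9me3 reads was -0.12, and between region width and reads 0.02, as a description of regions that share both libraries.

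**Figure D5:**
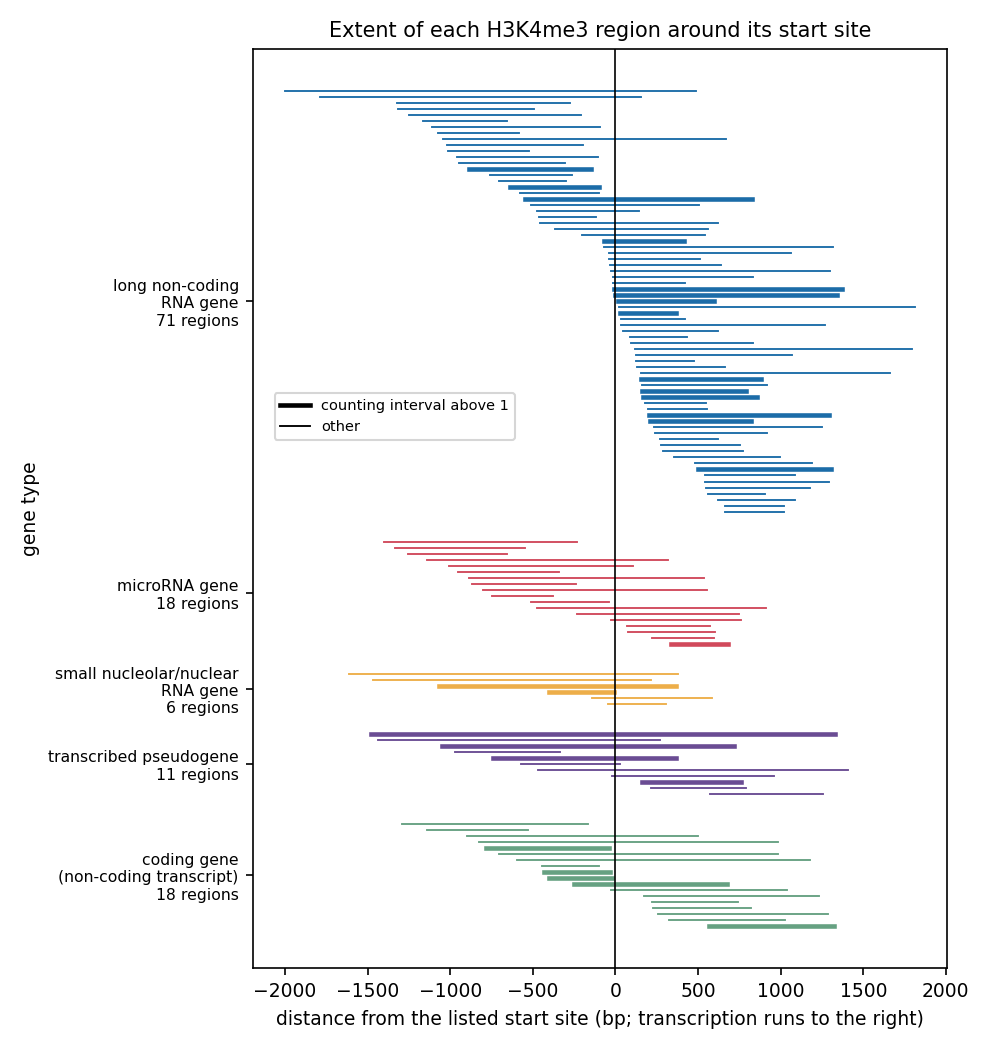
Extent of each of the 124 H3K4me3 regions (lines) relative to the listed start site, in bp along the direction of transcription (x axis), grouped and coloured by gene type; thick lines mark regions with a counting interval above 1. Long non-coding regions lie on both sides of the start, and of all members 44 regions cross it.

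The map of region positions shows that 7 of the 18 microRNA regions cross the start of the hairpin, as do 5 of the 6 small nucleolar or nuclear RNA regions. Per kb of listed region, 4930592C13Rik had 2.62 RPM per kb in the control and 5.42 in the knockout, Mir5103 had 1.75 and 4.96, and Tug1 had 1.05 and 2.61. The window in which the reads were counted is not given in the sources used here, so levels per kb may not be those of the counted stretch.

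For 69 member genes the listed start equals the start in the RefSeq promoter table, 55 of them long non-coding RNA genes and 14 coding genes with a non-coding transcript. In the 55 long non-coding windows the ratio of observed to expected CpG had a median of 0.88 (quartiles 0.72 and 0.99), against 0.76 in the 14 coding genes among the members, 0.79 at 804 coding accessions, 0.24 at all 11588 RefSeq long non-coding starts and 0.57 at all 21263 coding starts. The GC box GGGCGG was found on either strand in 42 of the 55 long non-coding member windows (76.4%), in 64.2% of those of coding accessions and in 16.3% of all RefSeq long non-coding windows. Of the 14 coding genes among the members 6 held it. The ETS motif CCGGAAG was found in 32.7%, 28.6% and 3.89% of these 3 sets, and the TATA box TATAAA in 5.45%, 5.35% and 15.5%. Over all RefSeq windows of that length the shares were 35.7%, 8.86% and 13.6%. CCAAT was found in 41.8% of the 55 windows and CACGTG in 9.09%, against 41.9% and 11.4% of those of coding accessions and 37.4% and 7.15% of all windows. In the promoters shown above, 1700028E10Rik has 2 GC boxes and 1 ETS motif, 4930592C13Rik has 2 GC boxes, D130017N08Rik has 1 GC box, 1 ETS motif and 1 CCAAT, and 9330136K24Rik has none of the 5. A match describes letters in the window and is not evidence of a bound factor. The RefSeq windows as a whole were not chosen by H3K4me3, so the contrast with them cannot be told apart from that choice. Of the 71 long non-coding regions, 39 also have a listed coding start within 1 kb on the other strand.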

How the data were processed

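H3K9me3 ChIP-seq values of 1 control and 1 knockout library of LSK cells were analysed, grouped by the genotype label. Libraries were made with the NEBNext Ultra II protocol, per the labels' protocols. Trimmomatic, Bowtie2 and the build mm10 are named in the submitters' processing notes. How regions were called, in what window reads were counted and how duplicates or reads with several matches were treated is not stated in the sources. The authors deposited the H3K9me3 values as normalized values, read here as RPM, their ratio (knockout over control), and a region height read as H3K4me3 RPKM. The H3K4me3 library was not analysed here.

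All RPM values (100.0% in each library) were whole multiples of 1 read within 0.01 reads. The deposited ratio equalled the recomputed one. Regions are 1-based on mm10, and listed starts on the plus strand, deposited as 0-based, were moved by 1. Members were matched to RefSeq GRCm38.p6, 121 by accession and 3 by symbol, for gene type, neighbours, promoters and microRNAs, and gene bodies but no exons or UTRs were annotated. An opposite-strand neighbour is a coding start of the RefSeq promoter table within 1 kb on the other strand. Motifs were searched on both strands of 300 bases.

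With 1 library per group nothing was tested between conditions. Ratios carry exact binomial (Clopper-Pearson) 95% intervals of the knockout reads among both libraries' reads, scaled by the totals. They cover counting error only, since the reads carry no molecular identifiers and need not be separate molecules, and do not correct for the selection on the ratio. The interval code was tested on simulated data. Log2 ratios used a pseudocount of 0.0405 RPM, the 5th percentile of the values.

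Named are all members with an interval above 1, the 10 with most reads, the 5 highest and 5 lowest ratios with at least 10 reads, all microRNA, host and opposite-strand genes, members of a list of 62 known genes, and genes with 2 regions: 60 regions of 55 genes. Others were named after their values were seen. A member in the small RNA group is not reported by name here. The members and lists were chosen with earlier results of these data known. Alternatives were other pseudocounts, filters, interval levels, member sets and neighbour windows. Python 3.11.15, NumPy 2.4.6, pandas 2.3.3, SciPy 1.17.1 and matplotlib 3.10.9 were used.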

Additional observations from a re-analysis of the deposited data

How the results depend on the processing

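The joint ratio of 3.01 ran from 2.93 to 3.15 with 1 region per gene, with all non-coding accessions, with only genes typed as non-coding RNA genes, without members that have an opposite-strand coding start, with at least 10 reads, and without the 5 or 10 members with most reads (the last 2 added after seeing the data). The median log2 ratio of 1.16 depended on the pseudocount, being 1.42 with one 10 times smaller and 0.64 with one 5 times larger, and was 1.29 among regions whose mean was at or above the table's median. With both libraries scaled to equal sums over the table it was -0.13, because that scaling removes the difference by which the table was selected. The count of intervals above 1 fell from 26 to 12 with 99% intervals, for which no share of the whole table is given here. Of the 26, 17 were at the 95 regions typed as non-coding RNA genes (17.9% of these). The other 9 were at the 29 regions of coding genes or pseudogenes (31.0%), against 21.1% of the whole table. The members held 10.9% of the reads of members and coding accessions together, and 11.7% once numbered Zfp genes were left out of the latter. The share with a listed opposite-strand coding start was 33.1% within 500 bp and 41.1% within 2 kb. The 180 recomputed log2 ratios of the 60 named regions stayed within their counting intervals. No paired analysis was possible because there is only 1 library per group, and for the same reason no replicate could be left out. Depth limits single regions, since the commonest count pair of 1 and 3 reads allows ratios from 0.228 to 149.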

Other observations

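A set of 5 members lies within 100 kb of at least 2 numbered Zfp genes, the genes of zinc finger proteins: 1700008J07Rik, 6330415G19Rik, 9330136K24Rik, 9430065F17Rik and Fbxl12os. This set was chosen after its values were seen and was not tested. It had 18 control and 93 knockout reads, a joint ratio of 4.89 (95% counting interval 2.93 to 8.61), against 3.43 (3.31 to 3.57) in the whole table. Fbxl12os alone held 4 of the control and 41 of the knockout reads, and the joint ratio without it was not computed. An interval above 1 was found at 3 of the 5, against 21.1% of the whole table. The other 119 members had a joint ratio of 2.93 (2.61 to 3.29), an interval that overlaps that of the set. The 15 regions of coding genes in such surroundings that are not numbered Zfp genes themselves had 51 and 141 reads, a joint ratio of 2.62 (1.89 to 3.68), and 1 of the 15 had an interval above 1.

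Long non-coding genes had a listed region in 66 of 12731 RefSeq cases (0.518%) and microRNA genes in 18 of 1228 (1.47%). Protein-coding genes had a region listed with a coding accession in 5.37%. Each share is over all genes RefSeq types as such, and coding genes listed only by a non-coding transcript are not counted in the 5.37%. Only starts with an H3K4me3 region past the selection can be listed. These shares therefore cannot be told apart from which starts carry H3K4me3.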
